A study of Mus musculus with 6 samples.

Results

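Versican (Vcan), fibronectin (Fn1), the collagen genes Col5a1 and Col4a6, the adhesion genes Tgfbi, Edil3 and Itga5, and the heparan sulfate enzyme gene Hs6st2 make up a set of 8 extracellular matrix and matrix adhesion genes, out of 10766 genes that could be named in the deposited counts. They were chosen by their read counts, which were lower in sgUhrf1 tumours than in sgNT tumours in this same comparison, so their differences are given as a description and without a test. The sgUhrf1 tumours, 3 in number, grew from LG1233-OVA cells, a murine lung cancer line with the model antigen ovalbumin, that had been turned with CRISPR/Cas9 into a stable line labelled as a Uhrf1 knockout. The 3 sgNT tumours grew from the same line with a non-targeting guide, labelled WT and Control. In both groups 1000000 cells had been placed under the skin of female C57BL/6 mice and the tumours were taken on day 27. RNA came from whole tumours, so cancer cells and host cells were measured together, and fewer cells of a type cannot be told apart from less RNA per cell. The labels call the tumours biological replicates but do not name mice or say whether each line was 1 clone, so p-values measure the spread between these 6 tumours.

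The extracellular matrix is a network of collagens, glycoproteins and proteoglycans that surrounds cells in a tissue and in a tumour. Cells hold it through integrins, receptors that bind fibronectin, collagens or laminins outside the cell and the actin cytoskeleton inside. Heparan sulfate chains, whose pattern of sulfate groups is set by enzymes such as the 6-O-sulfotransferases, bind growth factors and matrix proteins. Uhrf1 encodes a chromatin protein that recognises hemimethylated CG sites after DNA replication and recruits the maintenance DNA methyltransferase.

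The names in the deposited tables belong to a later genome build than the reads, so each gene was found by position on GRCm38. A row of a table was taken for a gene where it covered at least 50 bp of exon of that gene and of no other, small RNA genes set aside, and the row with most counts stood for the gene. Versican reads, for example, stood under the name Hapln1, fibronectin reads under Atic and Tgfbi reads under Il9. Of the 8 rows, that of Tgfbi was nearest the limit, with 57 bp of exon, and none of the 8 genes was touched by a row with less than 50 bp. Of the 31-base words in the counted exon stretches of the 8 genes, 0 occurred in a transcript of a gene outside the 8. Tgfbi had only 3 such words. Matches among the 8 genes and the intron bases of the rows were not searched. Because the rows cover between 57 and 1835 bp of exon, with intron bases between, levels are compared within a gene and not between genes.

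Each tumour held between 5462555 and 6375069 counts, and levels are given as CPM, counts per 1000000 counts after TMM scaling. With this depth a count of 0 allows up to 3 counts, which is 0.445 to 0.66 CPM in these tumours. The scaling factor of sgUhrf1 replicate 3 was 0.813, against 0.995 to 1.09 in the other 5 tumours. Uhrf1 itself stood at 121.3, 73.0 and 89.9 CPM in sgUhrf1 replicates 1 to 3, against 133.2, 135.9 and 98.2 CPM in sgNT replicates 1 to 3, and the groups overlapped. Its log2 fold change was -0.37 ± 0.23 (SE, edgeR adjusted p = 0.227). The label cannot be checked from this level, because an edited transcript may persist and host cells carry the unedited gene.

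In each of the 8 genes every sgUhrf1 tumour lay below every sgNT tumour. Across the 4579 tested genes named by position the same held for 29.6%, and 21.5% were called lower by edgeR at an adjusted p under 0.05 (42.1% in either direction). Over all 10503 tested rows 19.7% were called lower and 39.9% in either direction. All 8 genes were in both of those groups by the way they were chosen, and nothing is read from that. By size of the fitted fall among the 985 genes called lower, Col4a6 ranked 4, Hs6st2 ranked 6, Edil3 ranked 10, Vcan ranked 41, Fn1 ranked 177, Tgfbi ranked 217, Col5a1 ranked 295 and Itga5 ranked 608. A fall of more than 3 on the log2 scale, which 4 of the 8 genes showed, was seen in 52 of the tested genes, or 1.14%. The 8 genes were chosen by these same differences, so nothing is read from the ranks or from this share either.

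**Figure D1:**
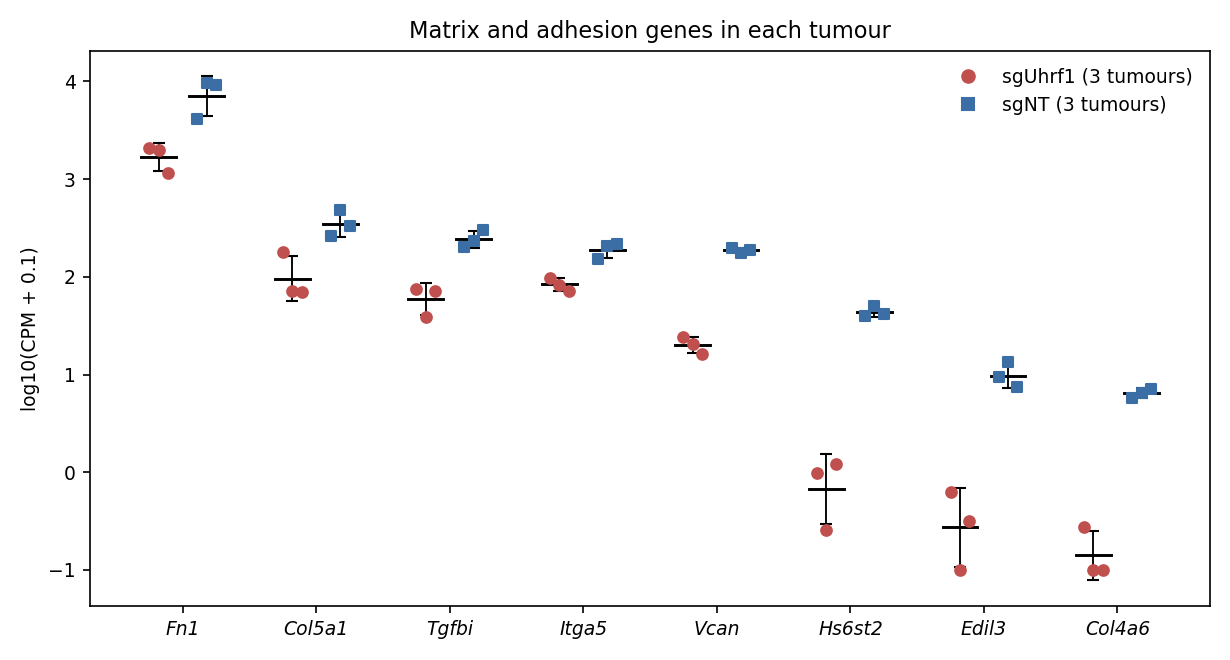
Level of each of the 8 genes in each tumour on a log10(CPM + 0.1) axis, with sgUhrf1 tumours as circles on the left of each pair and sgNT tumours as squares on the right; bars give the mean ± SD of the 3 log values. The groups do not overlap in any of the 8 genes, and Col4a6, Edil3 and Hs6st2 sit at or near 0 in sgUhrf1 tumours.

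Versican is a large chondroitin sulfate proteoglycan that binds hyaluronan (Vcan, ENSMUSG00000021614.16, chromosome 13, 89655312 to 89742509, minus strand). Its counted row covered 747 bp of exon 8 of 15, the 5217 bp exon that carries chondroitin sulfate attachment sites and that short versican isoforms lack. Vcan stood at 23.9, 20.5 and 16.3 CPM in sgUhrf1 replicates 1 to 3, against 195.4, 174.8 and 188.0 CPM in sgNT replicates 1 to 3. The lowest sgNT tumour was 7.31 times the highest sgUhrf1 tumour, and the sgNT tumours varied little, with a coefficient of variation of 5.62%. Mean levels were 20.2 ± 3.82 CPM in sgUhrf1 tumours and 186.1 ± 10.5 CPM in sgNT tumours (SD, n = 3 each), a log2 fold change of -3.20 ± 0.20 (SE). A second row, listed as Gm8546, covered the whole of exon 3, 375 bp, which lies near the start of the gene. There Vcan stood at 1.24, 0.476 and 0 CPM in sgUhrf1 tumours, against 8.39, 22.1 and 20 CPM in sgNT tumours. The groups were apart at both places in the gene, with a log2 fold change of -4.77 ± 0.72 at exon 3, which held 325 counts over the 6 tumours.

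Fibronectin is a glycoprotein that assembles into fibrils around cells and carries the RGD motif that integrins bind (Fn1, ENSMUSG00000026193.15, chromosome 1, 71585520 to 71653200, minus strand). Its counted row covered 1835 bp of exon over all annotated transcripts; in the 46-exon transcript Fn1-201 it covered 1069 bp, in 8 exons between exon 23 and exon 40. Fn1 stood at 2101.4, 1986.8 and 1165.4 CPM in sgUhrf1 tumours, against 4119.8, 9540.4 and 9093.3 CPM in sgNT tumours. The sgNT tumours were not alike: replicate 1 had less than each of the other sgNT tumours and was 1.96 times the highest sgUhrf1 tumour. Mean levels were 1751.2 ± 510.5 CPM in sgUhrf1 tumours and 7584.5 ± 3008.8 CPM in sgNT tumours (SD, n = 3 each), a log2 fold change of -2.11 ± 0.37 (SE). A second stretch, exons 1 to 19, lay in a row shared with the antisense gene Apol7d, whose reads cannot be told apart without strand. That shared row stood at 168.7, 256.2 and 115.9 CPM in sgUhrf1 tumours, against 1175.2, 4376.6 and 3457.8 CPM in sgNT tumours, a log2 fold change of -4.06 ± 0.51. sgNT replicate 1 was again the lowest sgNT tumour, and whether the start and the later part of Fn1 differ in size of change was not tested.

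Fn1 also set the total of the set. The 8 genes together took 0.256%, 0.217% and 0.113% of all counts in sgUhrf1 replicates 1 to 3, against 0.542%, 1.14% and 1.03% in sgNT replicates 1 to 3. Their summed level was 2478.3, 2200.8 and 1394.6 CPM in sgUhrf1 tumours, against 4981.9, 10707.5 and 10191.4 CPM in sgNT tumours. Fn1 made up between 82.7% and 90.3% of that sum in each tumour.

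The collagen chains encoded by Col5a1 and Col4a6 wind into triple helices in which glycine occupies every position that faces the helix axis. The counted stretches show that repeat and are printed from the GENCODE M21 transcripts, 5′ to 3′ on the gene's strand, with in-frame glycine codons in capitals. The Col4a6 stretch is all the coding sequence its row counted, 30 whole codons of which 10 encode glycine, and that of Col5a1 is 1 of the 9 exon stretches in its row, 36 codons of which 12 encode glycine.
Col4a6 chrX:141189347-141189437 (minus strand): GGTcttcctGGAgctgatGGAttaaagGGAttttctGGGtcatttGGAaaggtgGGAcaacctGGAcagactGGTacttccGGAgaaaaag
Col5a1 chr2:28002483-28002590 (plus strand): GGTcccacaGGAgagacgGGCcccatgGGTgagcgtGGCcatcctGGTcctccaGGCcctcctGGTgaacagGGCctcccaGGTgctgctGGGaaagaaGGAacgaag

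Col5a1 encodes the alpha 1 chain of type V collagen, which joins type I collagen fibrils and sets their width (ENSMUSG00000026837.15, chromosome 2, 27886425 to 28039514, plus strand). Its row covered 495 bp in 9 exons between exon 39 and exon 57 of 66. Col5a1 stood at 177.6, 71.7 and 69.0 CPM in sgUhrf1 tumours, against 260.2, 487.4 and 333.7 CPM in sgNT tumours. sgUhrf1 replicate 1 was well above the other sgUhrf1 tumours, and the lowest sgNT tumour was 1.47 times as high, the narrowest gap of the 8 genes. Mean levels were 106.1 ± 61.9 CPM in sgUhrf1 tumours and 360.4 ± 115.9 CPM in sgNT tumours (SD, n = 3 each), a log2 fold change of -1.76 ± 0.39 (SE). A second row over 71 bp of exons 18 and 19 stood at 20.9, 9.68 and 11.0 CPM in sgUhrf1 tumours, against 48.9, 104 and 75.3 CPM in sgNT tumours. sgUhrf1 replicate 1 and sgNT replicate 2 were the highest of their groups in both rows, and the log2 fold change of the second was -2.45 ± 0.37. A row over exons 1 to 4, shared with 2810430I11Rik, had a log2 fold change of -2.91 ± 0.33.

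The chains that join Col5a1 in type V collagen were not past the threshold. Col5a2, the alpha 2 chain, stood at 711.2, 334.1 and 676.2 CPM in sgUhrf1 tumours, against 746.9, 719.4 and 527.4 CPM in sgNT tumours. The groups overlapped, and the log2 fold change was -0.21 ± 0.29 (SE, edgeR adjusted p = 0.590). Col5a3, the alpha 3 chain, averaged 48.4 ± 20.7 CPM in sgUhrf1 tumours and 45 ± 16.7 CPM in sgNT tumours (SD, n = 3 each), with a log2 fold change of 0.10 ± 0.39 (adjusted p = 0.854) whose sign depended on the tumours and rows used. Without Col5a1, 2 of 6 fibrillar collagen genes tested in a row of their own were higher in sgUhrf1 tumours and 0 lower, with a median log2 fold change of 0.34. With rows shared with other genes counted, 2 of 8 were higher and 1 was lower, with a median of 0.06. Col11a2, a chain of the type XI collagen of cartilage, averaged 15.2 ± 2.45 CPM in sgUhrf1 tumours and 2.57 ± 0.812 CPM in sgNT tumours, and rose by 2.55 ± 0.37 on the log2 scale (adjusted p = 0.00103). Col27a1, a fibrillar collagen of cartilage, rose by 2.10 ± 0.43 (adjusted p = 0.00523).

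Col4a6 encodes the alpha 6 chain of type IV collagen, the network-forming collagen of basement membranes (ENSMUSG00000031273.16, chromosome X, 141165403 to 141474076, minus strand). Its row covered 91 bp of exon 29 of 45 and held 1, 0 and 0 counts in sgUhrf1 tumours, against 36, 43 and 40 counts in sgNT tumours. In CPM this was 0.177, 0 and 0 in sgUhrf1 tumours, against 5.70, 6.37 and 7.09 in sgNT tumours, and the sgUhrf1 values lie under the limit that a count of 0 allows. The scaled counts pooled over sgNT tumours were 105 times those over sgUhrf1 tumours, with an exact 95% interval of 18.5 to 4179.8 that covers counting error only. Col4a5, the alpha 5 chain, assembles with alpha 6 and starts 1.31 kb away on the opposite strand. It stood at 5.67, 4.44 and 2.86 CPM in sgUhrf1 tumours, against 27.2, 37.2 and 38.6 CPM in sgNT tumours. Col4a5 fell by 2.97 ± 0.32 (SE, edgeR adjusted p = 0.000319). The most widespread type IV chains are given here after their values were seen. Col4a2 was called higher at 0.88 ± 0.27 (adjusted p = 0.0288), a call lost in 5 of 14 other settings with an adjusted p of up to 0.184, and Col4a1 stood at 0.23 ± 0.22 and did not pass the test (adjusted p = 0.434). Atg4a, an autophagy protease gene 1.13 kb beyond the other end of Col4a6, fell by 1.33 ± 0.33 (adjusted p = 0.0113; 0.0914 without sgNT replicate 2 and sgUhrf1 replicate 1, the tumours with most skeletal muscle reads).

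Of the other basement membrane genes tested, 5 of 10 were lower and 1 was higher in sgUhrf1 tumours, with a median log2 fold change of -1.44. With rows shared with other genes counted, 6 of 17 were lower and 2 were higher, with a median of -0.37. Col18a1, whose collagen carries the endostatin fragment, averaged 24.8 ± 7.77 CPM in sgUhrf1 tumours and 160.7 ± 48.9 CPM in sgNT tumours (SD, n = 3 each) and fell by 2.69 ± 0.31 (edgeR adjusted p = 0.000423). Lamc1, the gamma 1 chain found in most laminins, fell by 2.65 ± 0.43 (adjusted p = 0.00189). Hspg2, which encodes perlecan, a heparan sulfate proteoglycan, fell by 1.58 ± 0.37 (adjusted p = 0.00936), from a row of 53 bp. That call was lost without sgNT replicate 2 (adjusted p = 0.0511) and when sgUhrf1 replicate 1 was left out as well (0.106). Among collagens of other types 1 of 6 was higher, Col14a1, a collagen that binds to fibrils, at a log2 fold change of 1.97 ± 0.41 (adjusted p = 0.00562). With rows of at least 200 bp another row stood for Col14a1, at 0.13 (adjusted p = 0.899).

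Tgfbi encodes a secreted adhesion protein with fasciclin domains that is induced by TGF-beta and binds integrins and collagens (ENSMUSG00000035493.10, chromosome 13, 56609523 to 56639562, plus strand). Its row covered 479 bp of intron and only 57 bp of exon, in exon 8 of 17. The 2 exon stretches are printed because they are all the exon sequence behind its values.
Tgfbi chr13:56629691-56629723 (plus strand): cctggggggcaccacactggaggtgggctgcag
Tgfbi chr13:56629807-56629830 (plus strand): atgagctgcttatcccagattcag

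Tgfbi stood at 75.6, 38.4 and 71.2 CPM in sgUhrf1 tumours, against 201.4, 231.1 and 303.2 CPM in sgNT tumours. sgUhrf1 replicate 2 was the lowest tumour and sgNT replicate 3 the highest. Mean levels were 61.8 ± 20.3 CPM in sgUhrf1 tumours and 245.3 ± 52.4 CPM in sgNT tumours (SD, n = 3 each), a log2 fold change of -1.99 ± 0.28 (SE).

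Edil3 encodes a secreted protein with EGF repeats and discoidin domains that binds the integrin alpha V beta 3 through an RGD motif (ENSMUSG00000034488.14, chromosome 13, 88821472 to 89323223, plus strand). It lies 332.1 kb from Vcan on the same chromosome. Its row covered 256 bp of an annotated transcript with a retained intron, and only 30 bp of these are coding. In all the row was 13677 bp long, with 8152 bp in introns of Edil3 and a part outside the gene. The row held 3, 0 and 1 counts in sgUhrf1 tumours, against 59, 90 and 41 counts in sgNT tumours. The scaled counts pooled over sgNT tumours were 41.9 times those over sgUhrf1 tumours, with an exact 95% interval of 16.1 to 155.3 for counting error. In CPM, Edil3 stood at 0.531, 0 and 0.22 in sgUhrf1 tumours, against 9.34, 13.3 and 7.27 in sgNT tumours. Each sgUhrf1 tumour had at most 3 counts, and the fitted log2 fold change was -5.24 ± 0.71 (SE). Xrcc4, a DNA repair gene 31.5 kb from the other side of Vcan, had a log2 fold change of -0.24 ± 0.32 and was not past the threshold (edgeR adjusted p = 0.580).

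Itga5 encodes the alpha 5 integrin chain, which pairs with beta 1 to form the classical fibronectin receptor (ENSMUSG00000000555.8, chromosome 15, 103344286 to 103366763, minus strand). Its row covered 149 bp in 4 exons between exon 6 and exon 25 of 30. Itga5 stood at 98.3, 83.2 and 71.2 CPM in sgUhrf1 tumours, against 150.4, 204.3 and 216.8 CPM in sgNT tumours. It had the smallest fitted difference of the 8 genes, and the lowest sgNT tumour was 1.53 times the highest sgUhrf1 tumour. Mean levels were 84.2 ± 13.5 CPM in sgUhrf1 tumours and 190.5 ± 35.2 CPM in sgNT tumours (SD, n = 3 each), a log2 fold change of -1.18 ± 0.21 (SE). Its partner Itgb1 was not analysed here. Itgav, the alpha V chain of receptors for fibronectin, vitronectin and Edil3 protein, stood at 191.6, 156.5 and 130.8 CPM in sgUhrf1 tumours, against 357.5, 358.7 and 297.2 CPM in sgNT tumours. The groups did not overlap, and Itgav fell by 1.08 ± 0.19 (edgeR adjusted p = 0.0028).

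Integrin and matrix receptor genes moved in both directions. Apart from Itga5, 5 of 9 tested were lower and 3 were higher in sgUhrf1 tumours, with a median log2 fold change of -1.08. With rows shared with other genes counted, 5 of 12 were lower and 4 were higher, with a median of -0.24. The laminin receptor chains Itga6 and Itga7 fell by 2.78 ± 0.52 and 2.55 ± 0.23 on the log2 scale (SE, edgeR adjusted p = 0.00348 and 0.000148). Itga7 averaged 10.5 ± 0.69 CPM in sgUhrf1 tumours and 61.8 ± 10.6 CPM in sgNT tumours (SD, n = 3 each). Ddr2, a receptor tyrosine kinase for fibrillar collagens, fell by 2.44 ± 0.62 (adjusted p = 0.0133). Without sgNT replicate 2 it stood at -1.79 (adjusted p = 0.0678), without sgUhrf1 replicate 1 as well at -1.66 (0.155), and without sgUhrf1 replicate 3 at -3.12. Among the genes that rose was the collagen receptor chain Itga1, named after its values were seen, at 89.9, 101.3 and 80.9 CPM in sgUhrf1 tumours, against 34.0, 21.6 and 19.0 CPM in sgNT tumours. Its groups did not overlap, and the log2 fold change was 1.86 ± 0.25 (adjusted p = 0.000806). The collagen receptor chain Itga11 was called higher at 2.10 ± 0.65 (adjusted p = 0.0305), although its groups overlapped and the call was lost in 6 of 15 other settings, among them without sgUhrf1 replicate 1 (1.33, adjusted p = 0.133).

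Hs6st2 encodes a heparan sulfate 6-O-sulfotransferase, which adds sulfate to the chains of heparan sulfate proteoglycans (ENSMUSG00000062184.11, chromosome X, 51387212 to 51681856, minus strand). Its row covered 91 bp of the 3′ untranslated part of the last exon. It held 5, 1 and 5 counts in sgUhrf1 tumours, against 250, 336 and 237 counts in sgNT tumours. These were 0.885, 0.159 and 1.10 CPM in sgUhrf1 tumours, against 39.6, 49.8 and 42 CPM in sgNT tumours. The lowest sgNT tumour was 36.0 times the highest sgUhrf1 tumour, the widest gap of the 8 genes. Mean levels were 0.714 ± 0.493 CPM in sgUhrf1 tumours and 43.8 ± 5.34 CPM in sgNT tumours (SD, n = 3 each), a log2 fold change of -5.97 ± 0.46 (SE).

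The related enzyme gene Hs6st1 stood at 19.8, 23.0 and 10.3 CPM in sgUhrf1 tumours, against 24.5, 34.5 and 39.5 CPM in sgNT tumours. Its log2 fold change of -0.88 ± 0.33 was not past the threshold (edgeR adjusted p = 0.0592), although it passed in 4 of 15 other settings. Of the other genes of heparan sulfate synthesis and its carriers, 4 of 8 tested in a row of their own were lower and 0 were higher, with a median log2 fold change of -0.72. With rows shared with other genes counted, 5 of 13 were lower and 2 were higher, with a median of -0.42. Extl3, which starts the chains, fell by 2.19 ± 0.32 (adjusted p = 0.0012), and by 1.33 when all its rows were summed (adjusted p = 0.00421). Ndst1, which prepares them for sulfation, fell by 1.79 ± 0.28 (adjusted p = 0.00154). Xylt2, which attaches the first sugar to the core protein, averaged 21.3 ± 2.26 CPM in sgUhrf1 tumours and 63.5 ± 8.66 CPM in sgNT tumours (SD, n = 3 each) and fell by 1.57 ± 0.21 (adjusted p = 0.000755). The syndecan gene Sdc4 was near the threshold at -0.56 ± 0.20 (adjusted p = 0.0484) and lost its call in 10 of 14 other settings.

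The wider matrix gene lists were used to place these 8 genes. Without them, the 11 lists held 287 genes, of which 94 had a tested row of their own. In sgUhrf1 tumours 29 of the 94 were lower, 30.9%, against 21.5% of all tested genes named by position, and 15 were higher, 16%, against 20.6%. The median log2 fold change of the 94 was -0.19, against -0.00 for all tested genes named by position. The count depended on the tumours used. Without sgNT replicate 2 there were 19 lower and 9 higher of 95 tested, and the same numbers were called when sgUhrf1 replicate 1 was left out too. Calls over all genes named by position fell as well. Without sgNT replicate 2, genes called lower went from 985 to 613 and genes called higher from 945 to 657. When rows shared with other genes were counted, 45 of 153 were lower and 26 were higher, with a median of -0.12.

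**Figure D2:**
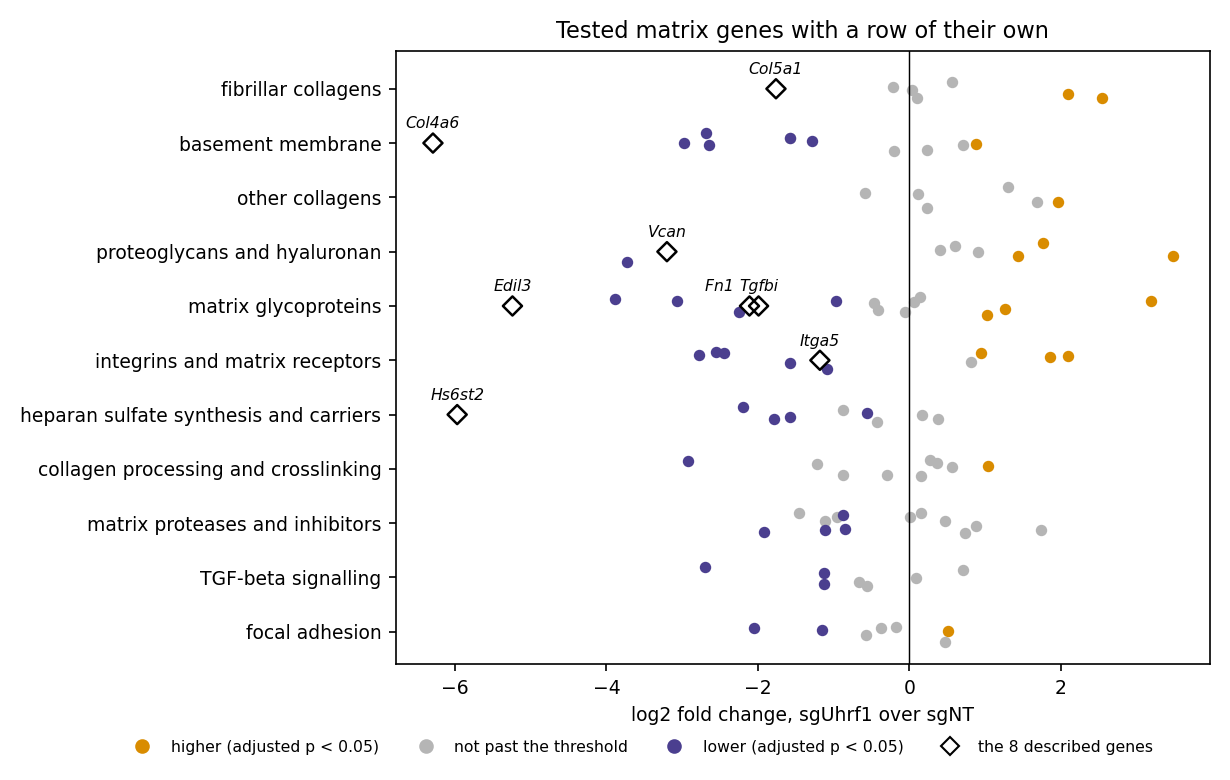
Log2 fold change (sgUhrf1 over sgNT) of each tested gene of the 11 matrix lists, 1 list per line; colours give the edgeR call, and open diamonds mark the 8 described genes. Without the 8 genes, basement membrane, integrin and heparan sulfate lists have medians of -1.44, -1.08 and -0.72. Proteoglycans and fibrillar collagens have medians of 0.91 and 0.34. With rows shared with other genes counted, these medians are -0.37, -0.24, -0.42, 0.41 and 0.06, in that order.

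Proteoglycan genes other than Vcan did not share its direction as a list, with 3 of 7 tested higher, 1 lower and a median log2 fold change of 0.91. With rows shared with other genes counted, 3 of 11 were higher and 2 were lower, with a median of 0.41. Acan encodes aggrecan, the cartilage proteoglycan of the same hyaluronan-binding family as versican, and was the gene with a row of its own that fell. It stood at 0.354, 2.54 and 1.32 CPM in sgUhrf1 tumours, against 17.4, 14.1 and 26.2 CPM in sgNT tumours, and fell by 3.73 ± 0.56 on the log2 scale (SE, edgeR adjusted p = 0.00129), and stood at -4.56 without sgUhrf1 replicate 2. Cd44, the main cell surface receptor for hyaluronan, stood at 17.7, 22.4 and 23.3 CPM in sgUhrf1 tumours, against 8.71, 4 and 5.85 CPM in sgNT tumours. It rose by 1.77 ± 0.34 (adjusted p = 0.0041). The proteoglycan genes Spock2 and Srgn also rose, by 3.48 ± 0.46 (adjusted p = 0.000753) and 1.43 ± 0.35 (adjusted p = 0.0118). Srgn, known from blood cells, missed the threshold without sgNT replicate 2 (adjusted p = 0.0519). Hapln1, a link protein that ties versican to hyaluronan, was not analysed here, and the reads under its name belong to Vcan.

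Among matrix glycoproteins other than Fn1, Tgfbi and Edil3, 4 of 12 tested in a row of their own were lower and 3 were higher. Their median log2 fold change was -0.23. With rows shared with other genes counted, 5 of 20 were lower and 6 were higher, with a median of -0.23. Fbln2, a fibulin that binds fibronectin and versican, stood at 112.8, 132.4 and 48.8 CPM in sgUhrf1 tumours, against 444.8, 1109.1 and 921.8 CPM in sgNT tumours. It fell by 3.07 ± 0.43 (SE, edgeR adjusted p = 0.000967), and, as for Fn1, replicate 1 was the lowest of the sgNT tumours. Smoc2, a calcium-binding matrix protein gene, and Emilin2, an elastic fibre protein gene, fell by 3.89 ± 0.84 (adjusted p = 0.00635) and 2.25 ± 0.52 (adjusted p = 0.00861). Smoc2 held 20, 2 and 0 counts in sgUhrf1 replicates 1 to 3, and without sgUhrf1 replicate 1 it fell by 6.62. Emilin2 lost its call without sgNT replicate 2 (adjusted p = 0.0504) and when sgUhrf1 replicate 1 was left out as well (0.0743). Tnxb, which encodes tenascin X, was called higher at a log2 fold change of 3.19 ± 1.01 (adjusted p = 0.0328), which rested on 31.9 CPM in sgUhrf1 replicate 3 and lost its call in 7 of 14 other settings, among them without that tumour (1.55, adjusted p = 0.187).

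Genes that process collagen, cleave matrix or hold TGF-beta in it were described next, since they act on the proteins above. Plod2, a lysyl hydroxylase for collagen crosslinks, averaged 4.34 ± 2.32 CPM in sgUhrf1 tumours and 33.0 ± 5.92 CPM in sgNT tumours (SD, n = 3 each) and fell by 2.92 ± 0.39 (edgeR adjusted p = 0.0008). Bmp1, a protease that trims procollagens, rose by 1.04 ± 0.22 (adjusted p = 0.00562). Plod2 and Bmp1 were the calls among 9 genes of collagen processing tested in a row of their own. With rows shared with other genes counted, 4 of 15 were lower and 2 were higher. Of 13 proteases and inhibitors tested in a row of their own, 4 were lower and 0 were higher. With rows shared with other genes counted, 8 of 22 were lower and 1 was higher. It was Mmp7, in a row shared with AV064505, which rose by 9.43 ± 0.81 (edgeR adjusted p = 0.000136). That row stood at 22.5, 51.7 and 80.3 CPM in sgUhrf1 tumours, against 0, 0.148 and 0 CPM in sgNT tumours. The stromelysin gene Mmp10 fell by 1.92 ± 0.23 (adjusted p = 0.000533), and Timp2, an inhibitor of metalloproteases, fell by 1.11 ± 0.32 (adjusted p = 0.0234; 0.0506 to 0.076 in 4 settings that left out 1 tumour). Of 7 TGF-beta genes tested in a row of their own, 3 were lower and 0 were higher. The 3 encode latent TGF-beta binding proteins, which tether the cytokine to the matrix. Ltbp2, of the same family, was not past the threshold at -0.67 ± 0.53 (adjusted p = 0.341), and its groups overlapped. With rows shared with other genes counted, 6 of 11 TGF-beta genes were lower and 0 were higher. Ltbp1 stood at 19.8, 9.68 and 12.8 CPM in sgUhrf1 tumours, against 73.3, 103.0 and 98.2 CPM in sgNT tumours, and fell by 2.70 ± 0.29 (adjusted p = 0.000317). Ltbp3 and Ltbp4 fell by 1.12 ± 0.35 (adjusted p = 0.0299) and 1.12 ± 0.28 (adjusted p = 0.0125), and Ltbp4 lost its call in 1 of 15 other settings, without sgNT replicate 2 and sgUhrf1 replicate 1 together (adjusted p = 0.0734). Ltbp3 lost its call in 6 of 15: in that setting (adjusted p = 0.153), with summed rows (-0.55, adjusted p = 0.141), and in 4 settings that left out 1 tumour (adjusted p of 0.0543 to 0.089).

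Focal adhesion genes link integrins to actin. Of 7 tested in a row of their own, 2 were lower (28.6%) and 1 was higher (14.3%). Over all tested genes named by position, 21.5% were lower and 20.6% higher. With rows shared with other genes counted, 3 of 14 focal adhesion genes were lower and 3 were higher. Actn4, an actin crosslinker, averaged 28.5 ± 11.8 CPM in sgUhrf1 tumours and 118.6 ± 29.1 CPM in sgNT tumours (SD, n = 3 each) and fell by 2.05 ± 0.32 (edgeR adjusted p = 0.00153). Bcar1, an adhesion scaffold gene, fell by 1.15 ± 0.35 (adjusted p = 0.027), a call lost in 5 of 14 other settings. Actn1, the close relative of Actn4, had the opposite sign at 0.51 ± 0.18 (adjusted p = 0.0444), a call lost in 10 of 15 other settings.

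Over the 6 tumours, the pattern of the 8 genes was compared with that of 4379 other tested genes by the root mean square difference of centred log2 CPM. The closest were Ltbp1 at 0.169, the zinc finger gene Morc4 at 0.204, Plod2 at 0.208, Col4a5 at 0.243 and Fgd1, a Cdc42 exchange factor gene, at 0.259. Their fitted falls were 2.70 ± 0.29, 3.53 ± 0.39, 2.92 ± 0.39, 2.97 ± 0.32 and 3.13 ± 0.37 on the log2 scale, in that order. The 8 genes were chosen for their fall between the same groups, so the genes closest in pattern had to share such a fall. Nothing is read from their likeness. Within the set, Col4a6 and Edil3 were most alike, with a difference of 0.383, and Itga5 and Hs6st2 least, with 2.237. sgUhrf1 replicate 1 had the highest level among sgUhrf1 tumours in 7 of the 8 genes, Hs6st2 being the exception.

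Markers of other cells moved with the set in part, and their part in the differences was not tested. Summed markers of fibroblasts, the main matrix producers of tissue, stood at 15712.7, 5617.2 and 12867.9 CPM over 8 genes in sgUhrf1 tumours, against 7868.0, 9418.0 and 5773.6 CPM in sgNT tumours, and the groups overlapped. Most of that sum was Col1a2, itself a matrix gene. It stood at 15183.1, 5291.1 and 12188.4 CPM in sgUhrf1 tumours, against 7497.3, 9088.3 and 5431.0 CPM in sgNT tumours. In the fibroblast list 1 of 6 tested genes was lower and 1 was higher, and 3 of the 6 had a negative log2 fold change. The receptor gene Pdgfra fell by 1.73 ± 0.49 (edgeR adjusted p = 0.0211; 0.0736 without sgNT replicate 2), and the surface protein gene Thy1 stood at 0.74 ± 0.22 (adjusted p = 0.0268; lost in 6 of 15 other settings, with an adjusted p of up to 0.195). Sums for endothelial, macrophage, leukocyte and skeletal muscle markers overlapped as well, with 0 of 5, 0 of 4, 1 of 4 and 0 of 2 tested genes called. Summed smooth muscle and pericyte markers lay higher in each sgUhrf1 tumour, at 28.9, 21.9 and 27.7 CPM over 4 genes in sgUhrf1 tumours, against 10.1, 13.8 and 12.6 CPM in sgNT tumours, and 1 of 4 was called higher. That gene was Notch3, at a log2 fold change of 2.26 ± 0.39 (edgeR adjusted p = 0.00252). Myh11 stood at 1.57 ± 0.62, while Cspg4 and Kcnj8 had the opposite sign, at -0.65 ± 0.46 and -1.30 ± 0.47, and none of them was past the threshold. In each of these lists 0 of the genes with a row were at 0 in all 6 tumours.

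Epithelial markers and mesenchymal regulators had most of their tested genes called, in opposite directions. Epithelial markers summed over 5 genes stood at 1693.1, 2881.8 and 2165.3 CPM in sgUhrf1 tumours, against 439.1, 248.3 and 157.0 CPM in sgNT tumours, and 3 of 4 tested genes were higher. They were E-cadherin (Cdh1), at 2.53 ± 0.29 on the log2 scale, the keratin gene Krt7, at 3.55 ± 0.66, and the surfactant protein gene Sftpd, at 6.79 ± 0.90 (SE, edgeR adjusted p = 0.000408, 0.00347 and 0.000775). Krt7 stood at 4.41 without sgNT replicate 1 and Sftpd at 7.82 without sgNT replicate 2. Mesenchymal regulators were summed over 6 genes, and Vim made up most of the sum. They stood at 4568.7, 3171.8 and 6951.2 CPM in sgUhrf1 tumours, against 8141.5, 9812.0 and 14131.1 CPM in sgNT tumours. Of 5 tested, 4 were lower: the chromatin gene Hmga2 by 2.20 ± 0.48 (adjusted p = 0.00694), the repressor gene Zeb2 by 1.43 ± 0.37 (adjusted p = 0.0149), vimentin (Vim) by 1.13 ± 0.35 (adjusted p = 0.0289) and the AP-1 gene Fosl1 by 1.09 ± 0.24 (adjusted p = 0.00773). The call of Zeb2 was lost without sgNT replicate 2 (adjusted p = 0.0552) and when sgUhrf1 replicate 1 was left out as well (0.0809). Vim lost its call in 5 of 15 other settings: in the same ones (adjusted p = 0.059 and 0.153) and in 3 more that left out 1 tumour, with adjusted p of 0.111 for sgNT replicate 3, 0.0741 for sgUhrf1 replicate 1 and 0.0652 for its replicate 2.

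Other settings moved the size of the differences in the 8 genes, over 116 fitted values in all; since the groups do not overlap, leaving out a tumour cannot turn their direction. The fitted log2 fold change ran from -3.38 to -3.07 for Vcan, from -2.44 to -1.90 for Fn1, from -2.36 to -1.51 for Col5a1 and from -8.25 to -5.60 for Col4a6. It ran from -2.21 to -1.75 for Tgfbi, from -1.35 to -1.07 for Itga5, from -6.45 to -4.62 for Edil3 and from -6.38 to -5.46 for Hs6st2. Without sgUhrf1 replicate 1, Col4a6 stood at -8.25, Edil3 at -6.45 and Col5a1 at -2.36, and without sgUhrf1 replicate 2 Edil3 stood at -4.62.

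**Figure D3:**
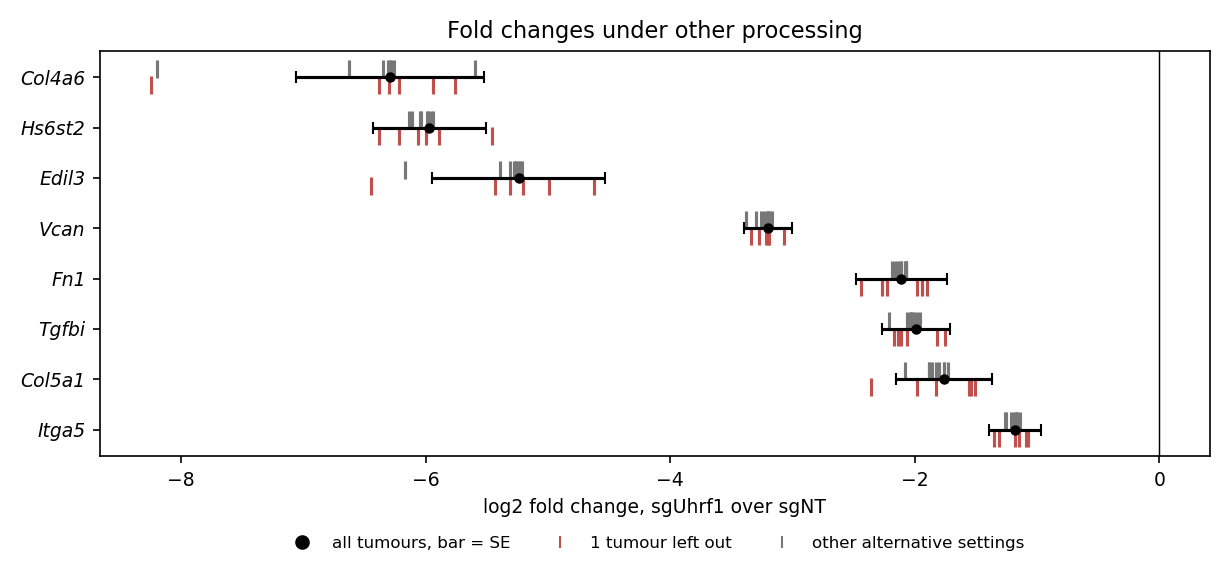
Log2 fold change (sgUhrf1 over sgNT) of the 8 genes with all tumours (points, bars give the SE) and under each alternative setting (ticks; red ticks leave out 1 tumour). Every tick lies below 0, and Col4a6 has the widest spread, from -8.25 to -5.60.

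Because Uhrf1 protein reads methylation of CG sites, the promoters of the set were laid out with their CG pairs in capitals; no methylation was measured in this series. RefSeq promoters of GRCm38.p6, 250 bases before to 50 after a start, were found for 6 of the 8 genes, 7 promoters in all, and not for Fn1 and Edil3. Over all 32841 mouse promoters of this length the median was 7 CG pairs, with quartiles at 3 and 20. Vcan is shown as the member that varied least between sgNT tumours, Col5a1 as the one with most CG pairs and Col4a6 as the one with fewest.
Vcan chr13:89742463-89742762 (minus strand): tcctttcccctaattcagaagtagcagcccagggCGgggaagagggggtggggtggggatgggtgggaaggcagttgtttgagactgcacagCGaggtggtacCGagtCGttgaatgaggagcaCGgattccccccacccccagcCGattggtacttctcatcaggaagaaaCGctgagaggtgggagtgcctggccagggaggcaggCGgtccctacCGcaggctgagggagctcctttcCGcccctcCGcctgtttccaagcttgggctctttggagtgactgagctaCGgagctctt
Col5a1 chr2:27886175-27886474 (plus strand): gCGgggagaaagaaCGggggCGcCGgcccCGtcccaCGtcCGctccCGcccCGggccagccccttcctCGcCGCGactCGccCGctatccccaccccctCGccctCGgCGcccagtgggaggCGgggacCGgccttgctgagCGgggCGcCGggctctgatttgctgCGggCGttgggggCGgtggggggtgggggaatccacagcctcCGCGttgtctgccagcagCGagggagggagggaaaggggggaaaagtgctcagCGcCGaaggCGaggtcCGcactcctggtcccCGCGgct
Col4a6 chrX:141474027-141474326 (minus strand): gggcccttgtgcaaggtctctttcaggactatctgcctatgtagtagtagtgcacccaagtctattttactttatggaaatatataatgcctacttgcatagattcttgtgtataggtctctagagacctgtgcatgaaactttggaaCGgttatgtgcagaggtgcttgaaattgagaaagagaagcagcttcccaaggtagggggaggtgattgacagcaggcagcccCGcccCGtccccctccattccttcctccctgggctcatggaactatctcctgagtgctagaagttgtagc

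The Vcan promoter holds 12 CG pairs, that of Col5a1 34 and that of Col4a6 3, and 60.4%, 92.3% and 23.3% of all promoters hold fewer. The other promoters hold 22 (Tgfbi), 13 (Itga5), and 33 and 12 (Hs6st2) CG pairs. Among the genes with the largest differences, Col4a6 had the fewest CG pairs and 1 Hs6st2 promoter nearly the most, while the other Hs6st2 promoter held 12. No promoter was found for Edil3, and which Hs6st2 promoter was in use was not tested. The letters GGGCGG, searched on both strands, occur in 6 of the 7 promoters and in 35.7% of all promoters. TGANTCA and CAGGTG, also on both strands, occur in 0 of the 7, against 7.81% and 20.2% of all promoters, and TATAAA in 1, a promoter of Hs6st2, against 13.6%. These matches describe letters in a window and not bound sites.

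**Figure D4:**
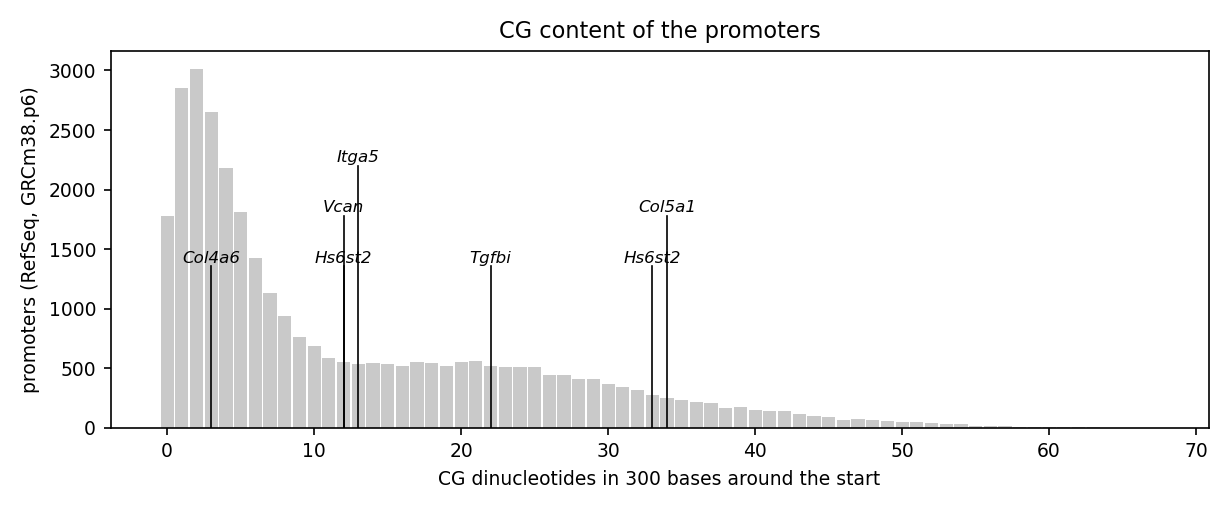
Number of CG pairs in 32841 mouse promoters of 300 bases (grey, number of promoters per CG count) with the 7 promoters of 6 described genes as labelled lines. They spread from 3 (Col4a6) to 34 (Col5a1), around a median of 7 for all promoters.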

How the data were processed

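RNA of 6 whole tumours, 3 sgUhrf1 and 3 sgNT, was measured after poly-A selection by paired-end sequencing. Each tumour has a deposited table of raw counts, the number of read pairs over the exons of each annotated gene. The submitters' processing notes name fastp, STAR, featureCounts and the build GRCm38. The file headers give featureCounts 2.0.1 with the GENCODE M26 annotation and no strand setting. M26 uses GRCm39 coordinates, so row names and reads are on different builds and rows were renamed by position.

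Of 53599 rows, 13432 covered at least 50 bp of exon of a single GENCODE M21 gene and held 41.4% of the counts, and 4919 rows shared by several genes held 56.8%. A counted row is a part of its gene, and intron or antisense reads inside it are not separated. The 10503 rows that passed filterByExpr at its defaults (minimum count 10, minimum total 15) were fitted in edgeR 4.0.16 (R 4.3.3) with TMM scaling. Quasi-likelihood p-values were adjusted over all of them by Benjamini-Hochberg, with a threshold of 0.05. It called 2121 rows higher (20.2%) and 2066 lower (19.7%) in sgUhrf1 tumours. On simulated counts with known changes, the fit recovered 14% of 2-fold, 60% of 4-fold, 80% of 8-fold and 98% of 16-fold changed rows. Only 50 of 10244 simulated rows were changed at each fold, while 39.9% of rows were called in the data. The adjustment was therefore stricter in the simulation, and these shares may not hold for the data. Errors of log2 fold changes are SEs from the same fit, and means carry the SD over 3 tumours. Count intervals and the floor of 3 counts cover counting error only. Likeness of patterns used log2 CPM with a prior count of 2, over genes whose mean log2 CPM was 1 or more.

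The 8 genes, the 11 matrix lists and the 8 marker lists were chosen with earlier results of these data known. Named beside the 8 genes are up to 4 called genes per list by size of change, partners by textbook role, near neighbours on the chromosome, the 5 genes with the closest pattern, and Uhrf1; a gene of this rule may be left unnamed, and Itga1, Col4a1 and Col4a2 were added after their values were seen. Alternatives were DESeq2 1.42.0, its size factors, limma-voom (limma 3.58.1), no or a stricter filter, a replicate block, each tumour left out, sgNT replicate 2 with sgUhrf1 replicate 1 left out, rows of at least 200 bp, summed rows and shared rows.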

Additional observations from a re-analysis of the deposited data

How the results depend on the processing

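Counts of calls moved by more than 1.5 times in 3 settings. Without sgNT replicate 2 and sgUhrf1 replicate 1, the tumours richest in muscle reads, 1094 rows, 522 genes named by position and 9 matrix genes were higher, and 771 rows, 384 genes and 19 matrix genes lower. Without sgNT replicate 2 alone, 1259 rows, 613 genes and 19 matrix genes were lower and 9 matrix genes higher. With shared rows counted, 26 matrix genes were higher and 45 lower. With 1 tumour left out, rows higher ran from 1431 to 2020 and lower from 1259 to 1908, genes higher from 657 to 921 and lower from 613 to 902, matrix genes higher from 9 to 20 and lower from 19 to 29. Fewer tumours are part of those settings; no other cause was tested. Deviations of same-numbered tumours correlated at -0.0795, -0.0209 and 0.05 (Pearson r), and those of other pairs at -0.0652 to 0.11. With 3 tumours per group these values cannot decide whether the numbers pair the tumours. With the replicate block 1838 rows were higher and 1807 lower, and 14 and 30 matrix genes.

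Signs turned for 3 genes that were not called: Xrcc4 to 0.03 and Col5a3 to -0.09 without the 2 muscle-rich tumours, Col5a3 to -0.19 with summed rows, and Col5a2 (-0.41 to 0.05) and Col5a3 (-0.19 to 0.41) with 1 tumour left out; the cause was not tested. Over the 54 other genes named, 709 of 798 values stayed on the same side, 78 lost their call and 4 gained one. Rows of at least 200 bp gave no value for Col4a6, Hs6st2, Itga5 and Tgfbi. The median over all tested rows was 0.02, and 0.04 with DESeq2 size factors. Limits: 1 to 4 counts stand behind Col4a6 and Edil3 in the sgUhrf1 group, and short stretches of exon stand for whole genes. In the simulation 3 tumours per group found 14% of 2-fold changes, with a smaller share of changed rows than was called here.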

Other observations

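Col4a6 and Hs6st2 lie on chromosome X, as do Col4a5, Morc4 and Fgd1 among the 5 genes closest in pattern. After seeing this, tested genes were counted by chromosome. Of 113 tested X genes 49 were lower (43.4%) and 11 higher (9.73%) in sgUhrf1 tumours by edgeR, with a median log2 fold change of -0.71. Of 4446 autosomal genes 935 were lower (21%) and 928 higher (20.9%), with a median of 0.01. Without Col4a6 and Hs6st2, 47 of 111 X genes were lower, with a median of -0.69. Over 15 alternative settings the share of X genes called lower ran from 25.9% to 50.6% and that of autosomal genes from 7.9% to 24.0%, and the X median from -0.91 to -0.56. The lowest shares came without sgNT replicate 2 and sgUhrf1 replicate 1, at 29 of 112 X genes and 355 of 4495 autosomal genes. Genes on X are not independent replicates, this count was chosen after the values were seen, and its cause was not tested.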
